A study of Monascus purpureus with 6 samples.

Results

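Peptidases cut the peptide bonds of proteins. Here they were the assembled transcripts of the red mould Monascus purpureus whose Pfam annotation, the protein family found in their sequence, names a peptidase, an aspartyl protease, the subtilase family or a serine carboxypeptidase. Transcripts whose KEGG entry names the proteasome or gamma-glutamyl were left out, and a mean of at least 0.1 FPKM over the 6 libraries was required (FPKM, fragments per kilobase of transcript, scaled to the mapped total of each library). The annotation words were found in 187 transcripts, of which 4 were left out for their KEGG entry. Of the remaining 183, 8 had no FPKM listed and 1 lay under the minimum, so that 174 of the 20381 transcripts tested were peptidases. The otubain transcript DN408_c0_g1_i4-S2A lay just outside with a mean of 0.0367 FPKM, and the prolyl oligopeptidase transcript DN1326_c0_g1_i5-S3A just inside with 0.117 FPKM (identifiers begin with TRINITY_, which is left out here). No difference between the groups was used in the choice.

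It assayed WT mycelia of M. purpureus MP2022, a single strain, on day 1 in shaken fermentation medium (150 rpm). The methods of the study give 25 °C for this medium after a warmer pre-culture, and do not place day 1 in either stage. The 3 taurine libraries came from cultures with taurine in the medium (4.0 g/L in the methods of the study), and the 3 control libraries came from the same strain, medium and day without it. The sample titles word the treatment otherwise, as cells pretreated with taurine. The study asked how taurine, a sulfonic acid that resembles an amino acid, acts on the joint production of bioethanol and azaphilone pigments. The labels do not state whether the libraries of a group came from separate cultures, so that p-values measure the spread between these libraries only.

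Endopeptidases cut inside a protein chain, while carboxypeptidases and aminopeptidases remove residues from its ends. In filamentous fungi, acid aspartyl proteases and subtilisin-like proteases are secreted to digest protein outside the cell. A second set of proteases and carboxypeptidases works in the vacuole, where proteins are recycled, and further peptidases in mitochondria and the endoplasmic reticulum remove targeting sequences or misfolded proteins.

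The depth of the libraries was not listed. From the steps between low FPKM values it was estimated at 18500000 to 20100000 fragments a library, with 50.6% to 55.6% of the low values within 0.1 of a whole fragment (20% would lie there if values were spread evenly). The sum of all FPKM was 831359 to 865009 in the taurine libraries and 797244 to 863693 in the control libraries, with the lowest in control 2. Control 2 stood apart from the other 5 libraries: its correlations with them over all tested transcripts were 0.906 to 0.915, against 0.930 to 0.939 between the other libraries. It held the lowest value for 50.4% of all tested transcripts with a mean of at least 10 FPKM. The log2 differences of single transcripts that it moved by over 1.5 times are also given without it. Sums over the transcripts of 1 gene or protein were not fitted without it. Of the 174 peptidases, 162 had their closest protein match in M. purpureus.

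The 174 transcripts came from 145 assembled genes and matched 109 different proteins in NR, the NCBI protein collection. Of these proteins, 32 were matched by more than 1 peptidase transcript, 93 transcripts in all. Many peptidases were hence measured as several contigs of 1 protein, and the values of such contigs were not independent. Several transcripts carried a peptidase family name beside a KEGG entry of another function, among them the second core subunit of ubiquinol-cytochrome c reductase, a TFIID subunit, the CCR4-NOT subunit 6 and a nucleoporin. They were kept, because the annotation rule holds them.

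No peptidase transcript passed an adjusted p of 0.05 in limma, which was reached by 8 of the 20381 transcripts tested (0.0393%). Of the 11790 tested transcripts with a mean of at least 1 FPKM and at least 500 bases, none passed it either. That class held 140 of the peptidases. At an unadjusted p under 0.05, 0 peptidases were higher with taurine (1.63% of all transcripts tested) and 1 was lower (1.03% of all). All 3 taurine libraries lay above all 3 control libraries for 7 peptidases, 4.02% against 3.78% of all transcripts tested, and below them for 3, 1.72% against 2.62% of all. After quantile normalization, 4 peptidases lay above and 9 below, and with each library scaled to the same total (TPM) 8 lay above and 2 below, so that this split depended on the scaling. The median log2 difference between taurine and control, on the log2(FPKM + 1) scale, was -0.0042 over the peptidases and 0.022 over all transcripts tested. By sign alone, 85 peptidases had a higher fitted value with taurine and 89 a lower one. Without control 2, 98 were higher and 76 lower. Of all 20381 transcripts tested, 11055 were higher and 9326 lower with control 2, and 11268 and 8879 without it. The shares of peptidases called thus lay near or below those of all transcripts.

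The summed level of the peptidases was 7316, 7023 and 7105 FPKM in the taurine libraries and 6814, 7607 and 7105 FPKM in the control libraries. The taurine sums lay within the range of the control sums. The means were 7148 ± 151 FPKM with taurine and 7176 ± 401 FPKM in the control (SD, n = 3 each), and an exact two-sided permutation test gave p = 0.8, where 3 against 3 libraries allow no p below 0.1. Without control 2, the mean control sum was 6960 FPKM, and the difference of taurine minus control was 188 FPKM in place of -27.3 FPKM. With each library scaled to the same total, the difference was -131 TPM. Peptidases held 0.789% to 0.954% of the FPKM of all tested transcripts in a library. The 10 most abundant made up 52.0% of the peptidases' summed mean, and the 20 most abundant 69.9%.

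How small a change the libraries could resolve depended on the level. Of the 75 peptidases with a mean of at least 10 FPKM, the 95% interval of the log2 difference lay inside a 2-fold change in both directions for 73, and inside 0.5 on the log2 scale for 55. The median standard error over these 75 was 0.12. None of them had a log2 difference over 0.5 in either direction, which 10 peptidases of lower level had. In the plot of difference against level, the points spread out towards the low levels at its left.

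**Figure D1:**
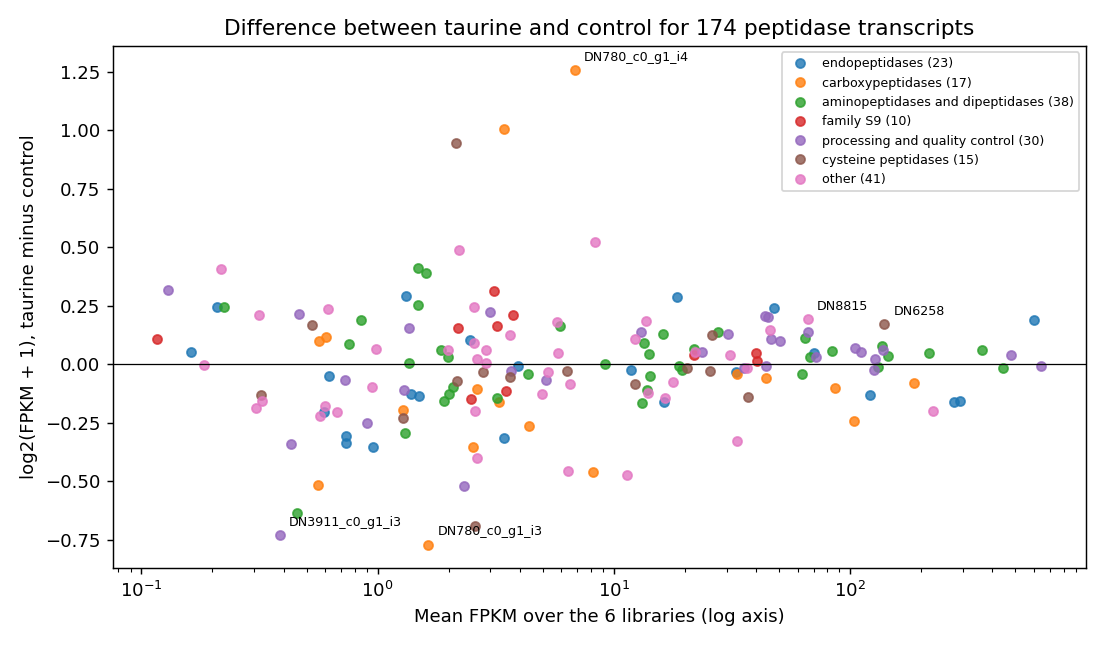
Each point is 1 of the 174 peptidase transcripts, coloured by role group with the number of transcripts in brackets. The horizontal axis is the mean FPKM over 6 libraries (log axis) and the vertical axis the difference of log2(FPKM + 1), taurine minus control. Above 10 FPKM all points lie within 0.475 of 0, and the differences reach 1.26 and -0.77 below it.

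The endopeptidases were 23 transcripts of the aspartyl proteases, the subtilases and the A4 family. Aspergillopepsin I, the secreted acid protease of moulds, was the most abundant of them (DN81_c2_g1_i1-S3A). It had 714, 575 and 613 FPKM in the taurine libraries, against 383, 697 and 634 FPKM in the control libraries. Control 1 was lower than the other 5 libraries, which overlapped between the groups. The log2 difference was 0.19 with a standard error of 0.24, and it was -0.074 without control 1, 0.36 without control 2 and 0.10 without taurine 1.

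Cerevisin, which is proteinase B of the yeast vacuole, was the second (DN9435_c0_g1_i1-C1A). Its values were 290, 244 and 267 FPKM with taurine and 226, 486 and 238 FPKM in the control. Control 2 was above all other libraries (the median of those was 244 FPKM), and the groups overlapped. Saccharopepsin, which is the vacuolar proteinase A that activates other vacuolar enzymes in yeast, was likewise highest in control 2 (DN1238_c0_g1_i1-S3A). It showed 262, 248 and 258 FPKM with taurine and 245, 382 and 252 FPKM in the control, and control 2 was 1.52 times the median of the others. The log2 differences of these genes were -0.16 with standard errors of 0.30 and 0.18. They became 0.20 and 0.044 without control 2.

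A cathepsin D-like aspartyl protease (DN1251_c0_g1_i1-S3A) also had its highest value in control 2, with 112, 115 and 116 FPKM with taurine and 113, 158 and 111 FPKM in the control. Kexin, the protease of the Golgi that cuts precursor proteins after pairs of basic residues, differed little between libraries (DN3517_c0_g1_i1-S1A). It had 34.7, 31.3 and 31.8 FPKM with taurine and 33.2, 33.1 and 34 FPKM in the control. Oryzin, the secreted alkaline protease of Aspergillus, was the KEGG name of 8 subtilase transcripts, none of which had a mean over 10 FPKM. The most abundant of them, DN3635_c0_g1_i1-C2A, had 4.10, 4.06 and 3.37 FPKM with taurine and 3.09, 5.81 and 3.13 FPKM in the control.

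Among the endopeptidases were 3 of the 10 transcripts with the lowest unadjusted p in either direction. The A4 family peptidase DN4989_c0_g2_i1-S1A, of a family of acid proteases known from fungi, had 19.2, 21.96 and 19.9 FPKM with taurine and 15.4, 14.01 and 20.7 FPKM in the control (log2 difference 0.29, SE 0.15, unadjusted p = 0.109 in limma). Control 3 lay within the taurine values, and the log2 difference was 0.18 without control 2 and 0.44 without control 3. The aspartyl protease DN6523_c0_g1_i1-S2A had 53.3, 47.8 and 53.2 FPKM with taurine and 49.6, 35.3 and 46.5 FPKM in the control (0.24, SE 0.14, unadjusted p = 0.132 in limma). It was 0.095 without control 2, and 0.12 in the sum with DN6627_c0_g1_i1-C3A, which matched the same protein. The KEGG entry of DN6523 reads elongation factor G, so that its identity is uncertain. A second aspergillopepsin I, DN8482_c0_g1_i1-C2A, had 3.33, 2.79 and 2.61 FPKM with taurine and 3.24, 5.12 and 3.42 FPKM in the control (-0.32, SE 0.21, unadjusted p = 0.178 in limma), and the difference was -0.15 without control 2.

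**Figure D2:**
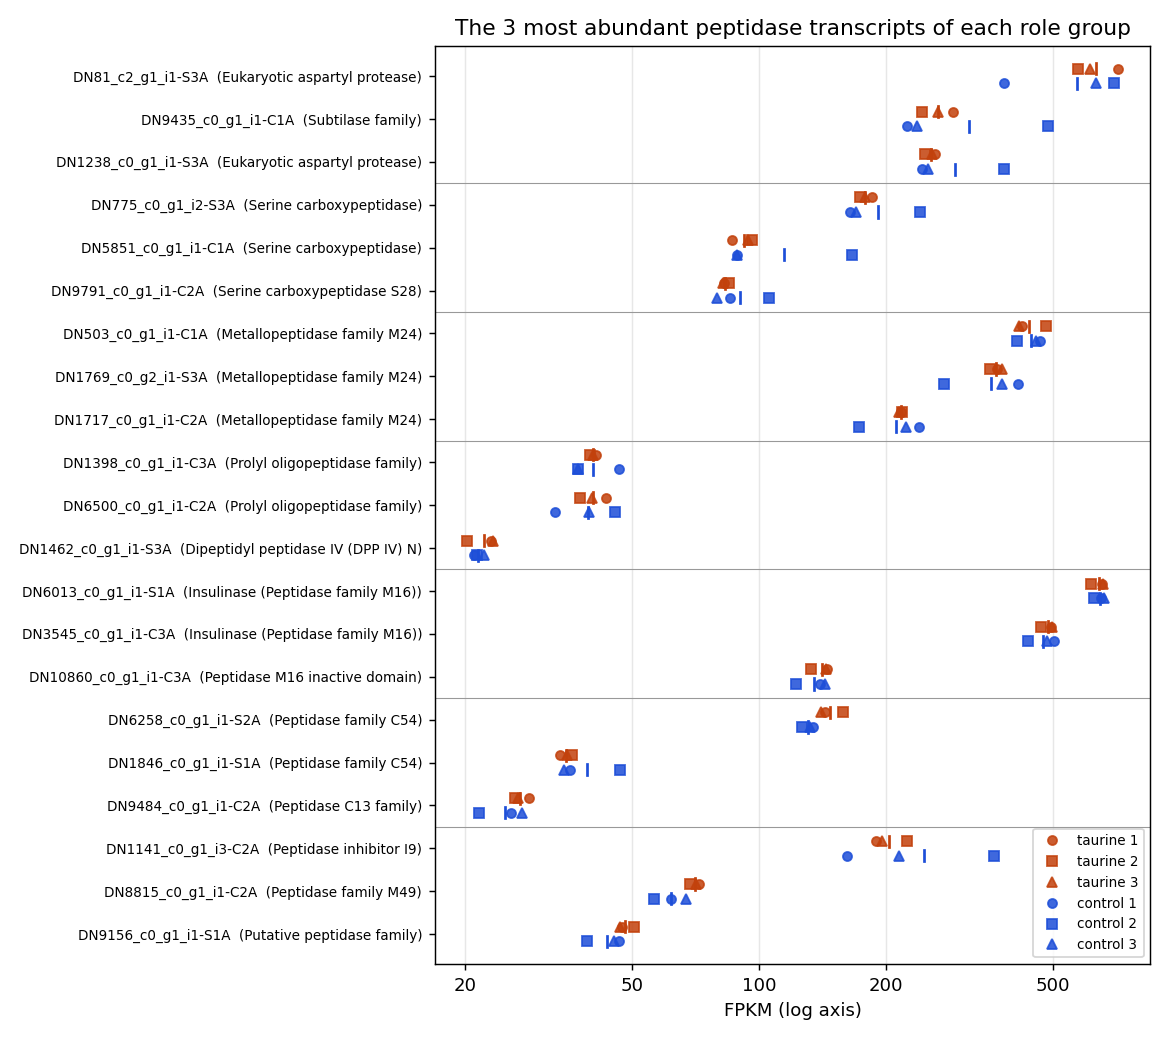
FPKM (log axis) of the 3 most abundant transcripts in each of 7 role groups, separated by grey lines, with the taurine libraries in orange above the control libraries in blue, and the Pfam family in brackets. Each symbol is 1 library and each short bar a group mean over 3 libraries. The groups overlap except for DN6258, DN8815 and DN9156, and control 2 (blue square) lies to the right of the other libraries for 8 of the transcripts.

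The carboxypeptidases were 17 transcripts, and 13 of them had a lower fitted value with taurine, with a median log2 difference of -0.11. Without control 2 the median was 0.015, and 6 of the 17 were lower. The most abundant was annotated as cathepsin A, the KEGG entry that also holds carboxypeptidase Y of the yeast vacuole (DN775_c0_g1_i2-S3A). It had 186, 173 and 178 FPKM with taurine and 165, 242 and 169.9 FPKM in the control. Carboxypeptidase D, a serine carboxypeptidase, had 86.3, 96.5 and 94.3 FPKM with taurine and 88.6, 166 and 88.6 FPKM in the control (DN5851_c0_g1_i1-C1A). The S28 family peptidase DN9791_c0_g1_i1-C2A had 82.6, 85.1 and 82.0 FPKM with taurine and 85.2, 106 and 79.6 FPKM in the control. In all 3 the taurine libraries were close to control 1 and control 3, and control 2 was the highest. For 5 of the 5 carboxypeptidases with a mean of at least 10 FPKM the highest value was in control 2, against 25.1% of all tested transcripts at that level.

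A second S28 peptidase of lower level, DN8885_c0_g1_i1-S3A, had 4.11, 3.96 and 3.52 FPKM with taurine and 4.71, 6 and 3.95 FPKM in the control (-0.26, SE 0.18, unadjusted p = 0.195 in limma). Control 3 lay within the taurine values, and the difference was -0.13 without control 2.

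The largest rise and the largest fall in the fitted values over all peptidases were isoforms of 1 assembled gene, a serine carboxypeptidase with the cathepsin A entry (DN780_c0_g1). Isoform i4 had 10.6, 8.02 and 7.79 FPKM with taurine and 5.55, 0.04 and 8.86 FPKM in the control (log2 difference 1.26, SE 0.81, unadjusted p = 0.168 in limma). Isoform i3 was listed at 0, 0 and 2.79 FPKM with taurine and at 2.26, 4.78 and 0 FPKM in the control (-0.77, SE 0.81, unadjusted p = 0.375 in limma). Isoform i2 had 5.66, 4.42 and 10.5 FPKM with taurine and 8.60, 12.01 and 7.65 FPKM in the control (-0.46, SE 0.31, unadjusted p = 0.187 in limma). Isoform i5 had a higher fitted value with taurine, like i4, and its lowest value in control 2. It had 5.55, 5.29 and 2.86 FPKM with taurine and 2.99, 0 and 3.92 FPKM in the control (unadjusted p = 0.157 in limma). The isoforms moved in different directions in the same library, and none passed the test. Without control 2 the log2 differences were 0.28 for i4, -0.21 for i3 and -0.29 for i2. That of i4 was 1.90 without control 3, that of i3 lay between -1.48 and -0.21 over the fits without 1 library, and that of i2 between -0.77 and -0.23.

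Summed over the 6 transcripts that matched this protein, the level was 22.2, 19.1 and 26.5 FPKM with taurine and 21.8, 17.5 and 24.6 FPKM in the control (log2 difference 0.085). The range over the libraries was 3.48 on the log2 scale for the most variable isoform and 0.575 for the sum. Over the 32 proteins with several peptidase transcripts, the sum varied less than the most variable single transcript in 31, with median ranges of 0.46 for the sums and 0.985 for the single transcripts. The log2 differences of these sums lay between -0.55 and 0.19, and none passed the test.

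The mitochondrial intermediate peptidase, an oligopeptidase of family M3 that makes a second cut in some imported proteins, held the single peptidase with an unadjusted p under 0.05 (DN3911_c0_g1_i3-S1A, a contig of 4499 bases). Its values were 0, 0.04 and 0.06 FPKM with taurine and 0.69, 1.09 and 0.43 FPKM in the control. The groups did not overlap, with all 3 taurine libraries at or near 0. At the estimated depth these values stand for 0, 3.1 and 5.1 fragments with taurine and 56.3, 88.3 and 35.3 fragments in the control. The log2 difference was -0.73 with a standard error of 0.26 (unadjusted p = 0.027, adjusted p = 0.999 in limma). The adjusted p was 0.666 without control 2. With a pseudocount of 0.1 in place of 1, the log2 difference was -2.60. The study names this contig in its list of differentially expressed genes, defined there by a fold change of at least 2. The comparison of the study was not used here, and the log2(FPKM + 1) scale understates the change of a contig this low.

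Its neighbour isoform DN3911_c0_g1_i5-S1A had 2.82, 0.77 and 0.65 FPKM with taurine and 0.83, 0.13 and 2.91 FPKM in the control, and these groups overlapped. Of the 5 transcripts that matched this protein, DN2054_c0_g1_i2-C1A carried most of the level, with 27.4, 35.7 and 31.8 FPKM with taurine and 34.5, 25.0 and 27.3 FPKM in the control. The sum of the 5 was 38.3, 39.4 and 36.5 FPKM with taurine and 41.4, 29.6 and 38.8 FPKM in the control. The summed level overlapped between the groups, with a log2 difference of 0.069 (SE 0.13, unadjusted p = 0.622 in limma). The low contig was thus a minor part of this protein's level in each control library. Its difference did not appear in the sum of the 5, where control 2 was the lowest library. With only the isoforms of its assembled gene summed, the log2 difference was -0.35.

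**Figure D3:**
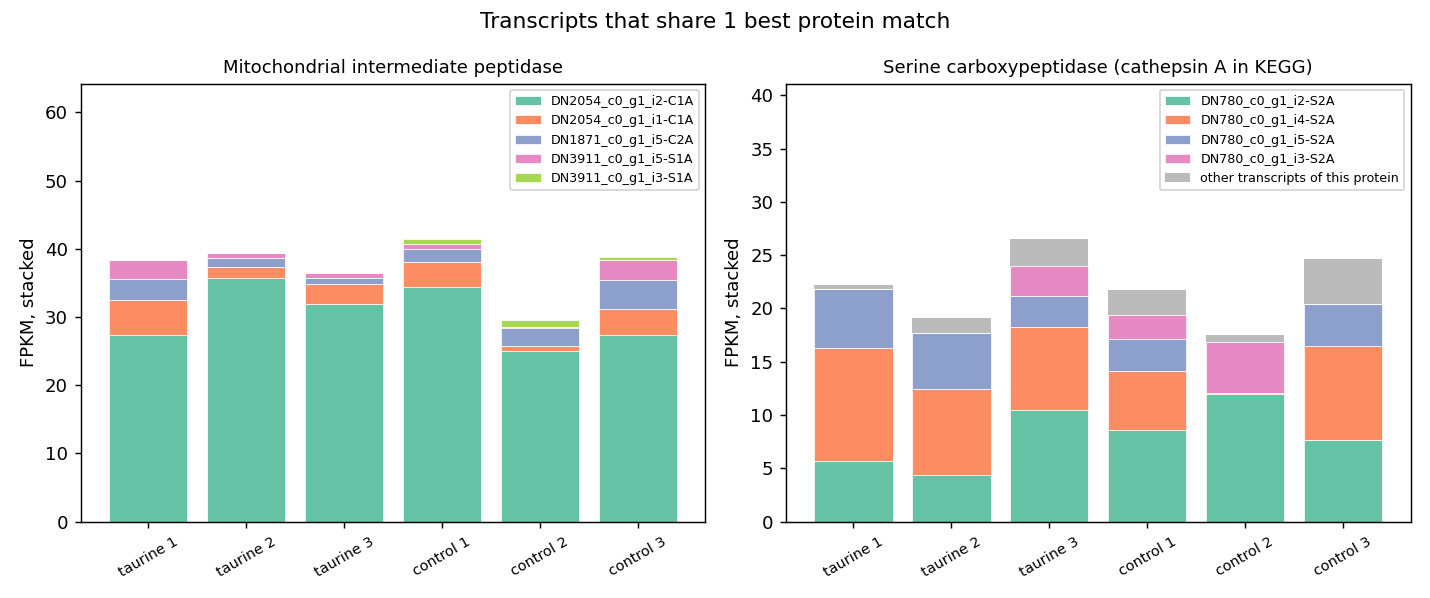
FPKM of the transcripts that share 1 best protein match, stacked for each library, with taurine at the left and control at the right, for the mitochondrial intermediate peptidase (left panel) and a serine carboxypeptidase (right panel). The sums are 36.5 to 39.4 FPKM with taurine and 29.6 to 41.4 FPKM in the control at the left, while the isoforms at the right take different shares in each library.

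The aminopeptidases and dipeptidases were the largest named group, with 38 transcripts. Of these, 22 had a higher and 16 a lower fitted value with taurine, and none passed the test. Methionine aminopeptidase 1, which removes the first methionine of new proteins, had 421, 482 and 415 FPKM with taurine and 466, 411 and 456 FPKM in the control (DN503_c0_g1_i1-C1A). Methionine aminopeptidase 2 had 218, 218 and 215 FPKM with taurine and 239.7, 173 and 223 FPKM in the control (DN1717_c0_g1_i1-C2A). ARX1, which shares the M24 fold and in yeast acts in ribosome export and not as a peptidase, had 368, 353 and 378 FPKM with taurine and 414, 276 and 378 FPKM in the control (DN1769_c0_g2_i1-S3A). Control 2 was the lowest library for these 3 genes. Among the other 5 libraries, both control values of methionine aminopeptidase 2 lay above the taurine values, and the groups overlapped for the other genes.

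Aspartyl aminopeptidase, of family M18, had 86.1, 84.6 and 84.4 FPKM with taurine and 81.5, 83.8 and 80.01 FPKM in the control (DN1886_c0_g1_i1-S3A). Its groups did not overlap, at a distance of under 1 FPKM. An M28 family peptidase had 30.5, 27.24 and 29.0 FPKM with taurine and 27.17, 25.7 and 25.8 FPKM in the control, which did not overlap either (DN8986_c0_g1_i1-S1A). Another transcript without overlap, DN3079_c0_g1_i2-S2A, was a low one of family M20, with 0.37, 0.29 and 0.32 FPKM with taurine and 0.10, 0.16 and 0.10 FPKM in the control. The M20 family transcript DN9053_c0_g1_i1-S1A was among the 5 lowest p on the higher side, with 2.2, 1.90 and 1.38 FPKM with taurine and 1.19, 0.80 and 1.38 FPKM in the control (0.41, SE 0.24, unadjusted p = 0.135 in limma). It shared its protein match with 2 further transcripts, and their sum was 4.52, 4.30 and 2.82 FPKM with taurine and 3.47, 3.47 and 3.24 FPKM in the control, which overlapped.

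Aminopeptidase I, a vacuolar enzyme of yeast that is delivered there by the Cvt route, was among the steadier transcripts (DN6_c0_g1_i7-C1A). It had 138, 123 and 132 FPKM with taurine and 122, 144 and 131 FPKM in the control. Aminopeptidase Y, another vacuolar enzyme, had 62.1, 59.4 and 62.6 FPKM with taurine and 64.2, 64.8 and 60.4 FPKM in the control (DN9015_c0_g1_i1-S2A). Aminopeptidase 2, a zinc aminopeptidase of family M1, had 3 transcripts that summed to 139, 128 and 135 FPKM with taurine and 122, 103 and 126 FPKM in the control. All 3 taurine sums lay above the control sums, with a log2 difference of 0.19 (unadjusted p = 0.085, adjusted p = 0.999 in limma). Only 2 of its 3 transcripts carried a peptidase family name and they were minor ones, with means below 10 FPKM.

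The S9 family, the prolyl oligopeptidases and the dipeptidyl peptidases, held 10 transcripts, and 8 of them had a higher fitted value with taurine (median log2 difference 0.079). Of all 20381 transcripts tested, 11055 were higher. Without control 2, 7 of the 10 were higher, with a median of 0.061. Dipeptidyl-peptidase 5 was the protein match of 4 of the 10, and their sum had a log2 difference of 0.042. Dipeptidyl aminopeptidase B, a vacuolar membrane enzyme of yeast, was the KEGG name of 3 of the 10. The most abundant had 43.3, 37.5 and 40.2 FPKM with taurine and 32.7, 45.6 and 39.5 FPKM in the control (DN6500_c0_g1_i1-C2A), and the next 23.1, 20.3 and 23.3 FPKM with taurine and 21.0, 21.4 and 22.2 FPKM in the control (DN1462_c0_g1_i1-S3A). The control values of both lay within or around the taurine values. The long contig DN1398_c0_g1_i1-C3A, with the splicing helicase BRR2 as its KEGG entry and dipeptidyl-peptidase 5 as its protein match, had 41.1, 39.6 and 40.4 FPKM with taurine and 46.5, 37.1 and 37.1 FPKM in the control.

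The peptidases of processing and quality control were 30 transcripts, with a median log2 difference of 0.046, and -0.0095 without control 2. The beta subunit of the mitochondrial processing peptidase, which removes the targeting sequence of imported proteins, was the most abundant peptidase of all. It had 655, 617 and 657 FPKM with taurine and 649.7, 627 and 659.9 FPKM in the control (DN6013_c0_g1_i1-S1A). The alpha subunit, whose M16 domain is inactive, had 146, 133 and 144 FPKM with taurine and 140.0, 122 and 144 FPKM in the control (DN10860_c0_g1_i1-C3A). The core subunit 2 of ubiquinol-cytochrome c reductase, a relative of these subunits in the respiratory chain, had 495, 469 and 497 FPKM with taurine and 503, 437 and 484 FPKM in the control (DN3545_c0_g1_i1-C3A). Each of the 3 overlapped between the groups.

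The AAA proteases of the inner mitochondrial membrane, which degrade misfolded membrane proteins, were as steady. AFG3 had 129, 127 and 128 FPKM with taurine and 125, 120.4 and 132 FPKM in the control (DN11032_c0_g1_i1-C3A). Its relative of the same M41 family had 126, 122 and 125 FPKM with taurine and 119.7, 137 and 124 FPKM in the control (DN8580_c0_g1_i1-S2A).

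Some smaller processing peptidases stood low in control 2. ATP23, a protease that processes a subunit of the ATP synthase in yeast, had 110.3, 117 and 111 FPKM with taurine and 128, 83.4 and 121 FPKM in the control (DN10297_c0_g1_i1-C3A). IMP1, a signal peptidase of the inner mitochondrial membrane, had 44.5, 49.8 and 44.2 FPKM with taurine and 51.0, 27.9 and 44.2 FPKM in the control (DN6026_c0_g1_i1-C1A). The signal peptidase subunit SPC25 of the endoplasmic reticulum had 72.1, 70.4 and 65.7 FPKM with taurine and 66.2, 52.2 and 72.2 FPKM in the control (DN8642_c0_g1_i1-S2A). In each of the 3, control 2 was below all other libraries. Among the remaining 5 libraries, both control values of ATP23 lay above the taurine values, while the groups of IMP1 and SPC25 overlapped.

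The cysteine peptidases were 15 transcripts. The most abundant belonged to family C54, the family of ATG4, which trims the ubiquitin-like protein ATG8 in autophagy. It had 144, 159 and 141 FPKM with taurine and 134, 126 and 132 FPKM in the control (DN6258_c0_g1_i1-S2A). All taurine libraries lay above all control libraries, with a log2 difference of 0.17 (SE 0.08, unadjusted p = 0.064, adjusted p = 0.999 in limma). In the sum over the transcripts of its protein match it was 0.24. The transcript that KEGG names ATG4 had 33.7, 35.9 and 34.98 FPKM with taurine and 35.5, 46.9 and 34.5 FPKM in the control, with overlapping groups (DN1846_c0_g1_i1-S1A). GPI8, the C13 family subunit of the transamidase that attaches the GPI anchor, had 28.4, 26.3 and 26.7 FPKM with taurine and 25.8, 21.7 and 27.3 FPKM in the control (DN9484_c0_g1_i1-C2A).

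The otubains, which remove ubiquitin from proteins, held 7 of the 15 transcripts, and 6 of them matched 1 protein. The 8 transcripts of this protein summed to 51.5, 50.2 and 47.0 FPKM with taurine and 38.1, 71.9 and 49.6 FPKM in the control. Control 1 was the lowest and control 2 the highest, with the taurine libraries between them. A zinc finger peptidase of family C78, DN1369_c0_g1_i1-C2A, had 2.78, 2.71 and 2.74 FPKM with taurine and 2.87, 2.83 and 2.80 FPKM in the control, a difference without overlap but of under 0.2 FPKM.

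The remaining 41 transcripts held single families and the inhibitor domains. Dipeptidyl-peptidase III, a zinc enzyme of family M49 that removes dipeptides from short peptides, had the lowest p on the higher side (DN8815_c0_g1_i1-C2A). It had 72.3, 68.5 and 71.1 FPKM with taurine and 61.7, 56.3 and 67.2 FPKM in the control. The groups did not overlap, and the log2 difference was 0.19 (SE 0.09, unadjusted p = 0.061, adjusted p = 0.999 in limma). In the sum over the transcripts of its protein match it was 0.13. A transcript of the putative peptidase family had 47.3, 50.6 and 46.7 FPKM with taurine and 46.4, 39.0 and 45.4 FPKM in the control, again without overlap (DN9156_c0_g1_i1-S1A). Another without overlap was an aspartyl protease transcript, DN5209_c0_g2_i1-S3A, with 0.63, 0.75 and 0.87 FPKM with taurine and 0.56, 0.35 and 0.55 FPKM in the control.

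On the lower side, the lowest p among transcripts of at least 500 bases and 1 FPKM belonged to a pyroglutamyl peptidase, of a family that removes a terminal pyroglutamate (DN2003_c0_g1_i2-C2A). It had 3.31, 6.58 and 6.10 FPKM with taurine and 6.78, 7.99 and 7.58 FPKM in the control (-0.46, SE 0.24, unadjusted p = 0.102 in limma), without overlap. Taurine 1 was the lowest library, and without it the difference was -0.20. The other isoform of its gene had 16.1, 13.6 and 11.8 FPKM with taurine and 6.63, 23.4 and 10.6 FPKM in the control, and the sum of both overlapped, with a log2 difference of -0.046. The S33 family transcript DN2020_c0_g1_i3-C2A, which KEGG names a subunit of the CCR4-NOT complex, had 12.6, 7.13 and 8.05 FPKM with taurine and 9.91, 19.5 and 11.03 FPKM in the control (-0.47, SE 0.30, unadjusted p = 0.163 in limma), and the difference was -0.20 without control 2. The sum over the 3 transcripts of its protein was 22.1, 21.0 and 22.1 FPKM with taurine. It was 20.1, 25.6 and 22.4 FPKM in the control. The log2 difference was -0.055 in this sum, and -0.31 with only the isoforms of its assembled gene summed.

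The I9 domain, which in fungi is found as the propeptide or the inhibitor of subtilases, gave the most abundant transcript of these 41 (DN1141_c0_g1_i3-C2A). It had 189, 225 and 196 FPKM with taurine and 162, 362 and 216 FPKM in the control, where control 2 was 1.85 times the median of the others.

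Control 2 differed from the other libraries in many of these transcripts, which is given as a description made after the values were seen, with no test. Identifiers end in the name of 1 library, C2A being control 2. Of all tested transcripts ending in C2A, 61.3% were highest in control 2, as were 29 of the 49 such peptidases (59.2%). For the other libraries, 34.5% to 42.4% of all tested transcripts with their name were highest there. Among the 75 peptidases with a mean of at least 10 FPKM, control 2 held the highest value for 27 and the lowest for 30. The roles differed in direction. Of the 18 processing and quality control peptidases at this level, control 2 was the lowest library for 14 (77.8%, against 50.4% of all tested transcripts at this level) and the highest for 1. Their median deviation in control 2 from the median of the other 5 libraries was -0.20 on the log2 scale, against -0.13 over all tested transcripts at this level.

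Among enzymes that are vacuolar peptidases in yeast, taken by their KEGG entries, control 2 was more often the highest library. The KEGG names themselves do not state the vacuole. These enzymes were 17 transcripts of saccharopepsin, cerevisin, cathepsin A, aminopeptidases I and Y, dipeptidyl aminopeptidase B and Gly-Xaa carboxypeptidase, a set put together after the values were seen. For 6 of the 9 with a mean of at least 10 FPKM the highest value was in control 2 (66.7%, against 25.1% of all tested transcripts at this level). Their median deviation in control 2 was 0.13. The 3 most abundant, cerevisin, saccharopepsin and the cathepsin A transcript DN775_c0_g1_i2-S3A, deviated by 0.99, 0.60 and 0.48. The others of the 9 lay between 0.20 and -0.23, the lowest being Gly-Xaa carboxypeptidase. A high value in control 2 was also seen outside this set, as in carboxypeptidase D (DN5851_c0_g1_i1-C1A, 0.90). Control 1 held the lowest value of 6 of the 9. What set control 2 apart was not tested.

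**Figure D4:**
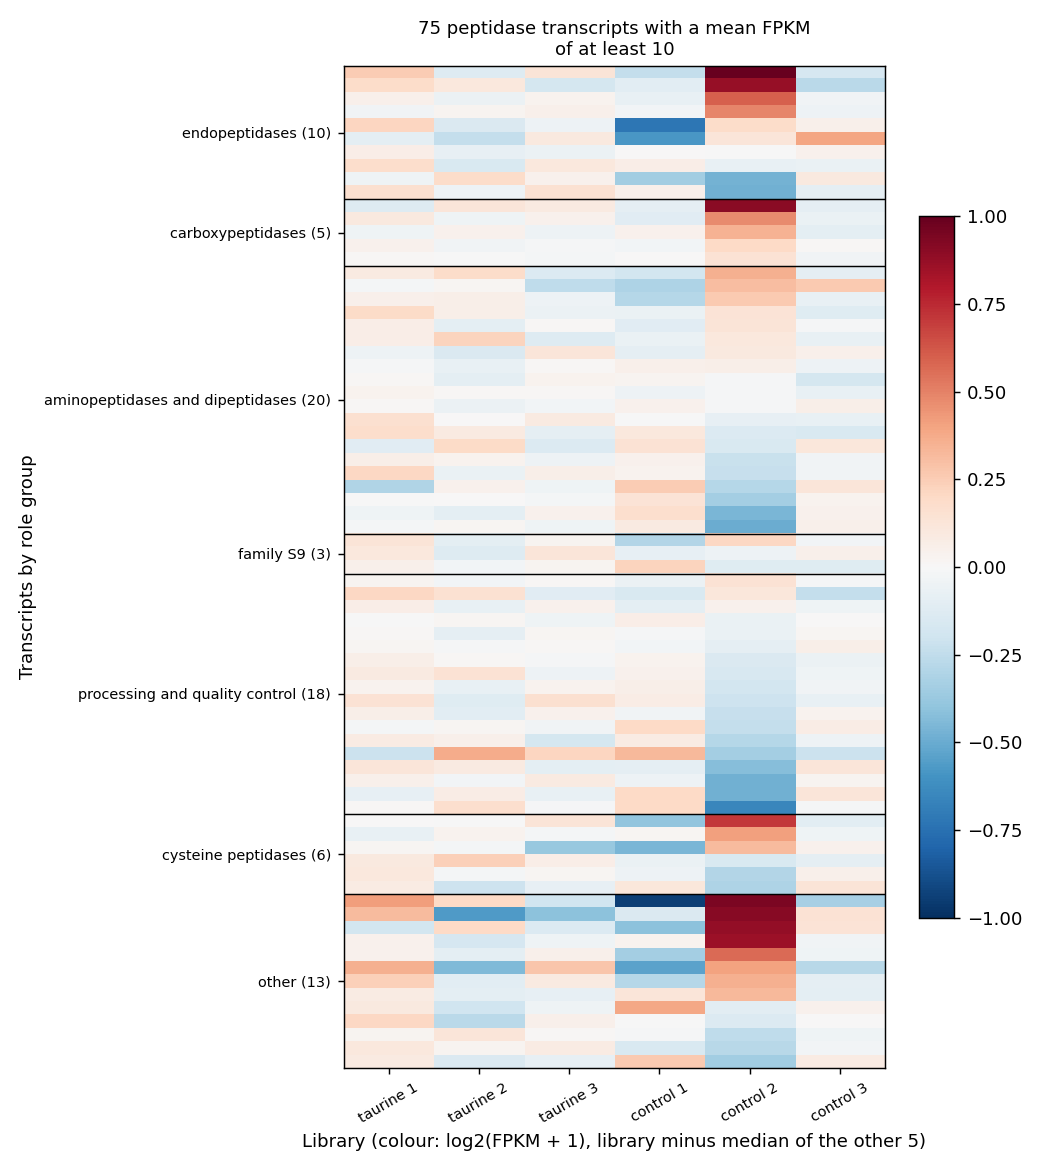
Each row is 1 of the 75 peptidase transcripts with a mean of at least 10 FPKM, ordered by role group and by its deviation in control 2, and each column is 1 library, with the taurine libraries at the left. The colour is log2(FPKM + 1) in that library minus the median of the other 5 libraries, which reaches 0.994 at most. The column of control 2 holds the strongest colours, red for most carboxypeptidases and several endopeptidases, and blue for most peptidases of processing and quality control.

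Other routes of protein breakdown and of amino acid uptake are given for comparison, and no transcript of them passed an adjusted p of 0.05 or an unadjusted p under 0.05. The proteasome, which degrades ubiquitin-tagged proteins, held 69 transcripts with a median level of 68.2 FPKM. Of these, 51 had a higher and 18 a lower fitted value with taurine, with a median log2 difference of 0.057. Among the 5904 tested transcripts with a mean of at least 10 FPKM, 3891 were higher and 2013 lower, with a median of 0.040. Over all transcripts tested, 11055 were higher and 9326 lower, with a median of 0.022. The lists were not summarized without control 2. Autophagy held 25 transcripts, with 12 higher and 13 lower and a median of -0.0040. Amino acid permeases held 88, with 32 higher and 56 lower and a median of -0.092. Oligopeptide transporters, which take up the short peptides that secreted peptidases release, held 26, with 8 higher and 18 lower and a median of -0.12. The highest value was in control 2 for 15 of these 26 (57.7%) and for 37 of the 88 permeases (42.0%), against 28.3% of all transcripts tested. These shares were not split by the library named in the identifier. The proteasome transcripts, taken at any level, had their lowest value in control 2 in 49.3%. This compares with 22.9% of all transcripts tested and 50.4% of those with a mean of at least 10 FPKM.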

How the data were processed

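RNA of 3 taurine and 3 control libraries (day 1) was assembled without a genome, and the authors deposited 1 table of FPKM per assembled transcript with its annotation. Submitters' processing notes name Bowtie2 2.2.5, RSEM 1.2.8 and DESeq without their roles. The table's averages and the authors' comparison columns (fold changes, p and q values of the groups and of single library pairs) were not used, and 0 columns of per-sample values were left aside. FPKM is relative to each library's total, so that a rise of a few abundant transcripts lowers all others. Replicates were taken as labelled.

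log2(FPKM + 1) was tested with limma 3.58.1 (R 4.3.3; empirical Bayes with a mean-variance trend) over all 20381 transcripts with a mean of at least 0.1 FPKM, with Benjamini-Hochberg adjustment. Fold changes on this scale understate the change of low transcripts. The summed level of the peptidases was tested by exact permutation (scipy, two-sided). Sums over the transcripts of 1 gene or protein were tested with limma. Figures and summaries were made in Python. Depth was estimated by finding, per library, the number of fragments and the fragment length at which low FPKM of transcripts of 450 to 800 bases came closest to whole fragments. This way of estimating was chosen with the values in view, and it is no independent check. No count test was run. The test was checked on simulated data.

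Members and lists were chosen with earlier results of these data known. Role groups followed Pfam families, except that the C65 otubains were placed with the cysteine peptidases after reading their annotation. Named were, in each role group, the 3 highest means, the 5 lowest unadjusted p in each direction (at least 500 bases and 1 FPKM), the largest rise and fall, the transcript highest in 1 library relative to the others, and a mitochondrial intermediate peptidase contig the study lists, with its isoforms. Further transcripts were named after their values were seen, among them those without overlap and those that deviated in control 2. Alternatives were the pseudocount, the minimum level, scaling to a total of 1000000 (TPM), quantile normalization, library weights, summing of isoforms, a replicate block and leaving out each library. Summing by best protein match was added after the data were seen. None of the 112 locus tags in the protein matches was found in the RefSeq gene table given for M. purpureus, and no sequence was read.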

Additional observations from a re-analysis of the deposited data

How the results depend on the processing

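The count of peptidases past an adjusted p of 0.05 was 0 under every alternative that was run. The count at an unadjusted p under 0.05, which was 1, became 0 with a minimum mean of 1 FPKM, 0 with isoforms of a gene summed, 0 with transcripts of 1 protein match summed, 2 with TPM and 9 with library weights, which were 0.229 for control 2 and 4.34 for control 3. Leaving out any 1 library gave 2 to 6. Same-numbered libraries did not deviate together (correlations of -0.022, -0.034 and -0.009), and with the replicate block the count was 0. The median log2 difference of the peptidases had a range of -0.0275 to 0.0299 over the fits without 1 library, and the number without overlap was 8 to 13 under the other scalings and sums, which were chosen for this count after seeing the data. The difference of the summed FPKM (-27.3) ranged over -208 to 188 in those fits, with 188 without control 2 and 35 without taurine 2, and was -131 TPM after scaling to the same total. The log2 difference of the contig DN3911_c0_g1_i3 turned to 0.069 in the sum of its protein, and was -0.35 with the isoforms of its assembled gene summed. Those of DN780_c0_g1_i2 and i3 turned to 0.15 with isoforms summed and 0.085 with the protein match summed, and that of i3 to 0.43 with library weights. In both protein sums control 2 was the lowest library, and neither sum was fitted without it. Cerevisin (DN9435) turned to 0.14 and saccharopepsin (DN1238) to 0.0060 with library weights. Over the fits without 1 library, the difference of aspergillopepsin I (DN81) lay between -0.074 and 0.36, that of cerevisin between -0.35 and 0.20 and that of saccharopepsin between -0.28 and 0.044. The causes were not tested. Of the log2 differences of single transcripts under the alternatives, 244 kept their direction and 11 reversed. None passed the adjusted threshold in any fit. At the unadjusted one, the C54 transcript DN6258 passed with library weights (unadjusted p = 0.030, adjusted p = 0.436 in limma), and DN3911_c0_g1_i3 did not reach it with the replicate block.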
